A study of Mus musculus with 8 samples.

Results

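The Nxph1+ interneurons of the mouse striatum are described here across 8 inbred strains. They are the nuclei that the authors' deposited annotation places in the cluster of that name, 1222 of 55672 annotated nuclei (2.195%) in 18 clusters. Nuclear RNA was counted in single nuclei of 32 striata by 10x Genomics Multiome, an assay of RNA and open chromatin in each nucleus. Each of 4 batches pooled nuclei of 1 mouse per strain, 4 male and 4 female, all 12 weeks old. The strains were C57BL/6, A/J, 129S1/SvImJ, NZO/HlLtJ, NOD/ShiLtJ, WSB/EiJ, PWK/PhJ and CAST/EiJ, untreated and without an introduced allele as far as the labels say. CAST/EiJ, PWK/PhJ and WSB/EiJ derive from wild mice, and NZO/HlLtJ mice become obese. The deposited annotation writes C57BL/6NJ where the design text writes C57BL/6J. A mouse was a batch and a strain, so each strain had 4 mice, 1 per batch. Which mice were male was not analysed here.

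Most neurons of the striatum are GABAergic projection neurons that carry dopamine receptors. Local interneurons are a minority that shapes their firing. Several interneuron classes arise in the medial ganglionic eminence of the embryo, where the transcription factors Nkx2-1 and Lhx6 specify them: fast-spiking cells with parvalbumin (Pvalb) or the parathyroid hormone-like hormone Pthlh, cells with somatostatin (Sst), neuropeptide Y (Npy) and neuronal nitric oxide synthase (Nos1), and cholinergic cells. Nxph1 encodes neurexophilin 1, a secreted glycoprotein that binds neurexins at synapses.

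The promoters of 3 genes are printed because these genes describe the cluster: Nxph1, which names it, Pthlh, which was read almost only in its nuclei with Nxph1, and Adarb2, which was higher in its nuclei without Nxph1. Each is the RefSeq sequence of build GRCm38.p6, 300 bases long, from 250 bases before to 50 after the gene's start, 5′ to 3′ on the strand of the gene. Capitals mark TAATTA, a core read by homeodomain factors such as those of the Lhx and Dlx families, and TGCTGA, the core of the site read by Maf factors, searched on both strands (TCAGCA is TGCTGA on the other strand). The 2 motifs do not overlap in these promoters.
Nxph1, chr6:8949769-8950068, plus strand: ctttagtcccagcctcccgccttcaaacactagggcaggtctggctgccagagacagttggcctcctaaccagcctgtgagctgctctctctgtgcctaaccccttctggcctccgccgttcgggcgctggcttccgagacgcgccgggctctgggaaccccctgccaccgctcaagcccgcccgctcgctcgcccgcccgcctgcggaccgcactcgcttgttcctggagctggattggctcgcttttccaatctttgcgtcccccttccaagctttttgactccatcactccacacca
Pthlh, chr6:147263964-147264263, minus strand: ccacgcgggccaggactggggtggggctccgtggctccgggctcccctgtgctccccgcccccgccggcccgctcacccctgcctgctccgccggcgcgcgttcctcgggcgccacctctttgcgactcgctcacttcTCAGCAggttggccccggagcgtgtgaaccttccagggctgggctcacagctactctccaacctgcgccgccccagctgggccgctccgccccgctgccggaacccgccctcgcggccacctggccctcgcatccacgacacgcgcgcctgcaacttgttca
Adarb2, chr13:8202616-8202915, plus strand: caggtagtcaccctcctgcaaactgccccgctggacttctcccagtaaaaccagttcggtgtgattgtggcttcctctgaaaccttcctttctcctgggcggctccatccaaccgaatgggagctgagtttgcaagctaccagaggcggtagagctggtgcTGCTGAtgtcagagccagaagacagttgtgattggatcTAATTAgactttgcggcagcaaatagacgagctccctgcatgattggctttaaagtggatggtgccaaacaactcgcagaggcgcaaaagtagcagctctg

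The Nxph1 promoter held neither motif, the Pthlh promoter held 1 TGCTGA, and the Adarb2 promoter held 1 of each. Of 32851 RefSeq promoters of the same length, 5.29% held TAATTA and 19.5% held TGCTGA. The authors' list of accessible regions was called over all nuclei, not per cluster, so it does not say in which cells a region was open. All 300 bases of the Pthlh promoter lay in a listed region at chr6:147263284-147264283. In the Adarb2 promoter 204 bases lay in one at chr13:8202712-8203711, and the Nxph1 promoter overlapped none, the nearest being 149 bases away.

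The interneurons had a median of 4280.5 unique molecular identifiers (UMIs; 332 to 31020) and 2188 genes per nucleus, and 5631337 counts in all. Batches 1 to 4 gave 322, 406, 233 and 261 interneurons with median UMIs of 4812, 4729, 2544 and 4673, so batch 3 was the shallowest. A mouse gave 16 to 169 interneurons (median 28.5) and 47718 to 802298 counts. Of the 1222 barcodes, 1072 (87.7%) were also in the ATAC index. The barcode of 69 interneurons recurred among annotated nuclei of another batch, 2 of them within the cluster. Median UMIs per interneuron did not pass a test between strains (two-sided permutation test of the F statistic within batch, 100000 resamples, p = 0.786).

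The cluster took between 1.10% and 10.7% of the annotated nuclei of a mouse, with a median of 1.89%. In 29 of the 32 mice the share was below 4%. The NZO/HlLtJ mouse of batch 2 had 10.7% (169 of 1583 nuclei, Wilson 95% interval 9.25 to 12.3, counting error only). The NOD/ShiLtJ mouse of batch 1 had 4.66% (75 nuclei) and the PWK/PhJ mouse of batch 4 had 4.64% (75 nuclei). These 3 mice above 4% gave 319 of the 1222 interneurons. The limit of 4% was set after the values were seen. The next mouse, NZO/HlLtJ of batch 1, had 3.71% and the one after it 2.33%, so the limit leaves in a mouse that was itself above the rest.

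Strain means of the share were 1.57% ± 0.334 (SD, n = 4) in C57BL/6, 1.63% ± 0.277 in 129S1/SvImJ and 1.66% ± 0.475 in A/J. WSB/EiJ had 1.77% ± 0.256, CAST/EiJ 1.87% ± 0.538, PWK/PhJ 2.36% ± 1.60, NOD/ShiLtJ 2.42% ± 1.53 and NZO/HlLtJ 4.58% ± 4.14. In NZO/HlLtJ the other 3 mice had 3.71%, 2.07% and 1.89%, so its mean rested on 1 mouse, and no 2 neighbours in this order were separated by more than their spread. The strain term did not pass the permutation test (F = 1.41, p = 0.312, adjusted p = 0.510 over 18 clusters). Without batch 2, which held the highest mouse, the adjusted permutation p was 0.926. Fewer interneurons in a dissected striatum and fewer recovered nuclei cannot be told apart. The plot of shares by mouse shows the single NZO/HlLtJ mouse above all others.

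**Figure D1:**
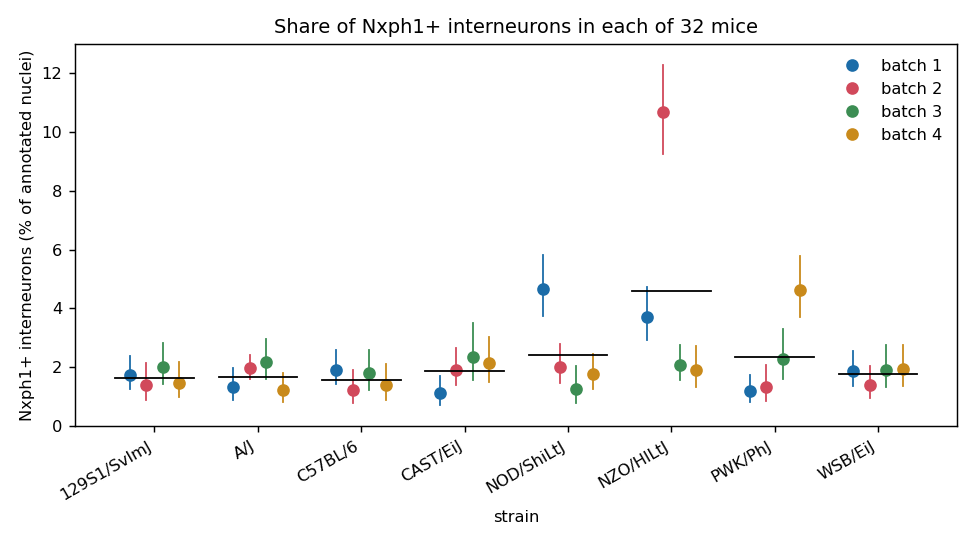
Percent of annotated nuclei in the Nxph1+ interneuron cluster (y axis) in each of 32 mice by strain (x axis), coloured by batch, with Wilson 95% intervals and the strain mean as a line. One NZO/HlLtJ mouse sits at 10.7%, while 29 of 32 mice lie below 4%.

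Nxph1 set the cluster apart from projection neurons in every mouse. The levels below are CPM, a gene's UMIs in the cluster of a mouse per 1000000 UMIs there, so they rank 1 gene across cell types and not genes against each other. Nxph1 was at 3118 ± 1085 CPM (SD, n = 32 mice; 841 to 5126) in the interneurons and at 2.47 ± 1.39 in Drd1+ neurons, the projection neurons of the direct pathway. The lowest interneuron value was thus far above the mean of the Drd1+ neurons. Over whole clusters, Nxph1 was at 2703 CPM here, 1403 in the separate Sst+ interneuron cluster (165 nuclei), 118 in the Chat+ cholinergic interneurons (120 nuclei), 4.28 in oligodendrocytes and 2.60 in Drd1+ neurons. Elavl2, which encodes a neuronal RNA-binding protein, did not follow this order: it was at 484 CPM here, 389 in Sst+ interneurons, 2175 in Chat+ interneurons and 12.3 in Drd1+ neurons. These levels chose or accompanied the clusters and are a description without a test.

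The peptide and calcium-binding markers that define interneuron classes were low. Sst was at 112 CPM here, 5275 in the Sst+ cluster and 73.1 in oligodendrocytes, which should lack it. Npy was at 34.1 CPM here, 2521 in the Sst+ cluster and 41.0 in oligodendrocytes. Nuclei were thinned to 1500 UMIs, and those with fewer were dropped, which left 1139 of 1222 interneurons and 7347 of 12066 oligodendrocytes. Of these, 9.04% of the interneurons and 9.17% of the oligodendrocytes had an Sst UMI, and 3.78% and 5.10% had an Npy UMI. Before thinning, the shares in the interneurons were 18.2% and 8.92%. In thinned Drd1+ neurons the shares were lower, 3.37% for Sst and 1.76% for Npy. Per mouse, Sst was at 145 ± 166 CPM against 21.7 ± 3.98 in Drd1+ neurons (higher in 31 of 32 mice) and Npy at 38.9 ± 58.3 against 11.9 ± 3.56 (higher in 23). Detection thus lay above that of Drd1+ neurons but not above that of oligodendrocytes. Before thinning, median UMIs were 1640 in oligodendrocytes, 4280.5 in the interneurons and 6505 in Drd1+ neurons. Thinning does not make the part of stray UMIs equal between cell types, so this detection is read neither as expression nor as its absence. Single nuclei differed: 33 interneurons carried 5 or more Sst UMIs (47 at most) against 142 with a single one.

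Pthlh and, less so, Pvalb were above the oligodendrocytes. Pvalb had a UMI in 2.46% of the thinned interneurons against 1.39% of oligodendrocytes and 0.436% of Drd1+ neurons, and in 7.69% without thinning. No interneuron carried more than 3 Pvalb UMIs. Pthlh was found in 5.18% of the thinned interneurons against 0.218% of oligodendrocytes and 0.0521% of Drd1+ neurons, and in 11.2% without thinning. Kit, a receptor tyrosine kinase of fast-spiking and other interneurons, was found in 20.4% against 4.83% and 0.143%. Of the 6 listed markers of the Pvalb and Pthlh class, 4 were higher than in Drd1+ neurons in 29 or more mice (8.29% of all genes). In 29 or more mice 1 was lower (6.56% of all genes). That was the peptide gene Tac1, at 76.9 ± 67.8 CPM against 332 ± 110 and lower in all 32 mice. Nos1 was at 12.3 CPM here and 1403 in the Sst+ cluster. The highest levels of Sst, Npy and Nos1 were thus those of the Sst+ cluster. The plot of marker genes in 5 clusters gives these levels by batch.

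Markers of other cell types were summed per mouse as a check of the label. The 8 projection neuron markers came to 836 to 2474 CPM in the interneurons and 4991 to 6773 in Drd1+ neurons. The 3 cholinergic markers had a median of 0 (0 to 18.6) against 6.56 in Drd1+ neurons, and the 3 excitatory markers a median of 12.2 against 6.25. The 5 oligodendrocyte markers came to 650 to 1991 CPM against 975 to 1402 in Drd1+ neurons, the 5 astrocyte markers to 110 to 420 against 105 to 241, and the 5 microglia markers to 22.3 to 128 against 37.7 to 69.5. The ranges of these 3 glial sums overlapped between the neuron types. Of the astrocyte markers, Slc1a3 was at 59.1 ± 34.2 CPM against 15.1 ± 3.56 and higher in 31 of 32 mice. Slc1a2 was higher in 23 mice, Aqp4 in 13, and Gja1 and Aldh1l1 in 11 each. The 2 neuroblast markers stood higher, with a median of 158 CPM (71.7 to 324) against 47.9 (31.8 to 72.1). Of them, Dcx, a microtubule protein of migrating neurons, was at 132 ± 54.9 against 24.9 ± 6.98 and higher in all 32 mice, and Sox11 was higher in 24. The part of these markers in the levels of other genes was not tested.

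Several interneuron transcription factors were higher than in Drd1+ neurons. Of 18 listed interneuron transcription factors, 6 were higher than in Drd1+ neurons in all 32 mice and 10 in 29 or more, and none was lower in 29 or more. Among all 13082 genes with at least 20 counts in the interneurons the shares were 2.84% and 8.29%, and 6.56% were lower in 29 or more mice. The counts for the lists took all members, without this limit. The median log2 ratio of the list was 3.25, beside 0.12 over all genes. Sox6, which guides the migration and maturation of these cells, was at 477 ± 185 CPM (92.2 to 924) and at 3.38 ± 2.43 in Drd1+ neurons. Maf was at 226 ± 132 CPM (34.9 to 660) against 0.907 ± 0.655, and the zinc finger factor Zeb2, which acts on interneuron migration, at 440 ± 173 against 10.2 ± 3.24. Lhx6 was low but higher in all 32 mice, 29.6 ± 17.7 CPM against 0.313 ± 0.315, and Nkx2-1 was higher in 30 mice, 33.9 ± 21.4 against 0.223 ± 0.252. Over whole clusters Lhx6 was at 25.6 CPM here and 195 in the Sst+ interneurons. Prox1, a factor of caudally derived interneurons, was also higher in all 32 mice (49.2 ± 31.7 CPM). Of the 6 listed markers of that class, Prox1 was the only 1 higher in 29 or more mice (8.29% of all genes). The median log2 ratio of that list was 0.09. Adarb2 was higher in 27 mice, Cck in 19, Htr3a and Calb2 in 14 each and Vip in 5.

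Genes of GABA synthesis and transport were less apart, and Drd1+ neurons are GABAergic too. Of 6 listed genes, 1 was higher in all mice (2.84% of all genes) and 3 in 29 or more (8.29%), with a median log2 ratio of 0.72, beside 0.12 over all genes. Gad1, a GABA-synthesizing decarboxylase, was at 242 ± 57.8 CPM against 108 ± 25.1. Gad2 was at 246 ± 49.2 against 170 ± 22.8, higher in 31 mice.

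Some channels of fast-spiking cells were higher than in Drd1+ neurons. Of 12 listed, 4 were higher in all mice (2.84% of all genes), 5 in 29 or more (8.29%), and 1 was lower in 29 or more (6.56%). Kcnc2, a Kv3 potassium channel that allows rapid firing, was at 755 ± 573 CPM (173 to 2224) against 6.16 ± 4.80 in Drd1+ neurons. Its relative Kcnc1 was at 195 ± 75.3 against 29.2 ± 3.95. Kcnip1, a Kv4 auxiliary subunit, was at 412 ± 154 against 2.45 ± 2.26. Kcnab1 went the other way, 679 ± 205 against 1470 ± 177, lower in all 32 mice. Kcnc2 had the widest spread between mice of these 4.

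Of 27 listed receptors and ligands, 20 had at least 20 counts, 5 were higher in all mice (2.84% of all genes) and 6 in 29 or more (8.29%), and 6 were lower in 29 or more (6.56%). Erbb4, the neuregulin receptor of interneurons, was at 6292 ± 2371 CPM (2001 to 10813) against 343 ± 86.2. Its ligand Nrg1 was the reverse, 1214 ± 567 against 5727 ± 768. Chrm2, a muscarinic acetylcholine receptor, was at 201 ± 73.1 against 0.968 ± 0.740. Of the kainate receptor subunits, Grik1 was at 253 ± 160 against 3.87 ± 1.57 and Grik3 at 76.6 ± 39.0 against 5.43 ± 2.61, while Grik2 was lower, 1345 ± 393 against 3453 ± 401. Igf1, a growth factor secreted by interneurons, was at 49.4 ± 33.9 against 0.196 ± 0.294.

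Of the 7 neurexophilins and neurexins, 5 had at least 20 counts and 3 were higher in all mice, beside 2.84% of all genes. The 3 were Nrxn2, Nrxn3 and Nxph1, which names the cluster, so its place in this count was given beforehand. Nxph1 was the only neurexophilin above 10 CPM: Nxph2 was at 5.09 ± 12.7, Nxph3 at 1.71 ± 4.81 and Nxph4 at 2.59 ± 4.62. Its binding partners were present in both neuron types, with Nrxn2 at 190 ± 46.6 CPM against 47.0 ± 8.79 and Nrxn3 at 8494 ± 1334 against 6410 ± 784. Of 4 Elavl genes 3 were higher in all mice (2.84% of all genes): Elavl2, Elavl4 (110 ± 40.6 against 6.41 ± 3.90) and Elavl3 (287 ± 77.0 against 152 ± 24.1). Elavl2 is itself a listed marker of the cluster, so its place in this count was also given beforehand. Of 14 neuropeptides 2 were higher and 2 lower in 29 or more mice, beside 8.29% and 6.56% of all genes, which is near the background. Of 7 genes of the nitric oxide pathway 0 were higher in 29 or more mice (8.29% of all genes) and 3 lower (6.56%). The median log2 ratio of that list was -0.49. The 3 lower were Gucy1a1, Gucy1a2 and Gucy1b1, while Nos1 was low but higher in 21 mice and lower in 11 (13.3 ± 16.6 CPM against 2.68 ± 1.31). In the perineuronal net list of 7, 1 was higher in all mice (2.84% of all genes), 2 in 29 or more (8.29%) and 0 lower in 29 or more (6.56%). Bcan, which encodes brevican of the matrix around neurons, was the one higher in all mice (65.6 ± 29.5 against 8.42 ± 2.06), while Ncan was lower in 27 mice and Vcan in 26.

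The nuclei of the cluster fell unevenly by Nxph1 itself. Of the 1222, 421 (34.5%) had no Nxph1 UMI and 306 had 20 or more. Median UMIs were 4465 without and 4198 with a Nxph1 UMI. Among the latter they were 3081.5 in nuclei with 2 to 4 Nxph1 UMIs and 5084 in those with 20 or more. This division was chosen after the values were seen and uses the genes that formed the cluster, so it is described with no test. Of 6367 genes at 30 CPM or more, the 4 batch values of the nuclei with Nxph1 all lay above those without for 470 genes (7.38%), and all below for 566 (8.89%). At least 4-fold differences were 48 and 22.

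Nuclei with Nxph1 held more Kit, Pthlh, Maf and Erbb4. Kit was at 308 ± 66.3 CPM (SD, n = 4 batches) with and 11.4 ± 5.37 without. Pthlh was at 62.1 ± 9.01 against 1.80 ± 1.73 and Maf at 287 ± 94.2 against 12.4 ± 10.2. Erbb4 was at 8082 ± 1096 against 670 ± 87.3, and Il1rapl2, a synaptic adhesion protein, at 5099 ± 986 against 181 ± 100. Egfr, the epidermal growth factor receptor, was at 314 ± 73.1 against 6.73 ± 8.95. Lhx6 was at 37.4 ± 9.90 against 9.21 ± 5.85 and Nkx2-1 at 41.0 ± 13.4 against 10.3 ± 2.92. Th, tyrosine hydroxylase, was at 11.7 ± 5.00 CPM with Nxph1 and had no count in the nuclei without it.

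Nuclei without Nxph1 held other genes. Adarb2, an inactive RNA-editing relative that marks caudally derived interneurons, was at 1516 ± 355 CPM without and 216 ± 95.9 with Nxph1. The other 5 listed genes of that class did not all follow it. Prox1 was higher with Nxph1 (56.1 ± 15 against 10.1 ± 6.71) and Vip without it (0.459 ± 0.918 against 15.9 ± 10.1), while the batch values of Htr3a, Cck and Calb2 overlapped. Gpc5, a glypican, was at 809 ± 487 against 102 ± 62.0, and the glycine receptor subunit Glra3 at 74.0 ± 15.7 against 6.21 ± 4.38. Tshz2, a zinc finger factor, was at 254 ± 78.3 against 35.2 ± 16.8, and Meis2, a homeobox factor, at 704 ± 32.6 against 284 ± 94.9. The opioid receptor Oprm1 was at 84.0 ± 27.2 against 27.6 ± 11.3 and Elfn1, a postsynaptic organizer, at 46.8 ± 11.7 against 19.1 ± 4.74. The batch values overlapped for Gad2 (208 ± 42.3 without, 260 ± 15.9 with), for the vesicular GABA transporter Slc32a1 (79.7 ± 29.4 and 85.4 ± 23.0), for Sst and for Pvalb. Gad2 was read in 48.5% of the nuclei without and 62.2% of those with Nxph1, beside 4.69% of oligodendrocytes, and Slc32a1 in 24.9% and 27.5%, beside 5.17%. These shares are at unequal depth, with median UMI counts of 4465 without and 4198 with Nxph1 and 1640 in oligodendrocytes. With nuclei thinned to 1500 UMIs and those with fewer dropped, Gad2 was read in 27.1% of the Nxph1+ interneurons and 4.14% of oligodendrocytes. Slc32a1 was then read in 9.75% and 4.23%. Gad1 was lower without Nxph1 (133 ± 13.6 against 258 ± 36.9). Of the markers of other cell types, the excitatory Slc17a7 was higher without Nxph1 (18.7 ± 13.5 CPM, 8.08% of nuclei) than with it (5.63 ± 1.62, 2.5%), as was Drd2 of projection neurons (46.4 ± 14.6 against 23.4 ± 9.12), with no overlap of batches, and Meis2 above is on the projection neuron list too. Higher with Nxph1, also with no overlap, were the projection neuron phosphodiesterase Pde10a (1008 ± 172 CPM against 492 ± 123) and the astrocyte glutamate transporter Slc1a3 (71.1 ± 15.4 against 21.9 ± 10.4). Drd1, Tbr1 and the other astrocyte markers measured overlapped. Their part in this division was not tested.

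The share of nuclei with Nxph1 varied between mice. Of the interneurons of a mouse, 40.0% to 95.7% had a Nxph1 UMI (median 72.4%). In the 3 mice above 4%, 160 of 319 (50.2%) did, beside 641 of 903 (71.0%) in the other 29. The share was 40.0% in the PWK/PhJ mouse of batch 4 and 48.5% in the NZO/HlLtJ mouse of batch 2, but 64.0% in the NOD/ShiLtJ mouse of batch 1. Among the other 29 it was lowest, 43.8%, in the NZO/HlLtJ mouse of batch 1. Nuclei without Nxph1 made 0.0568% to 5.50% of all nuclei of a mouse (median 0.457%), with 5.50% in NZO/HlLtJ of batch 2, 2.78% in PWK/PhJ of batch 4, 2.09% in NZO/HlLtJ of batch 1 and 1.68% in NOD/ShiLtJ of batch 1. Nuclei with Nxph1 made 0.766% to 5.18% (median 1.32%), again with the NZO/HlLtJ mouse of batch 2 highest. The transcription factor Zic1 was read in 109 interneurons, 52 of them from that mouse and 28 from the NOD/ShiLtJ mouse of batch 1, and in at most 3 of any other mouse. Ebf3, another developmental factor, was read in 28 of the 169 interneurons of that NZO/HlLtJ mouse and in at most 2 of any other. Adarb2 was read in 41.3% of the interneurons of the PWK/PhJ mouse of batch 4, and in 7.41% to 44.8% of those of the other mice, so this mouse lay within their range. The plot of nuclei with and without Nxph1 by mouse shows both fractions.

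**Figure D2:**
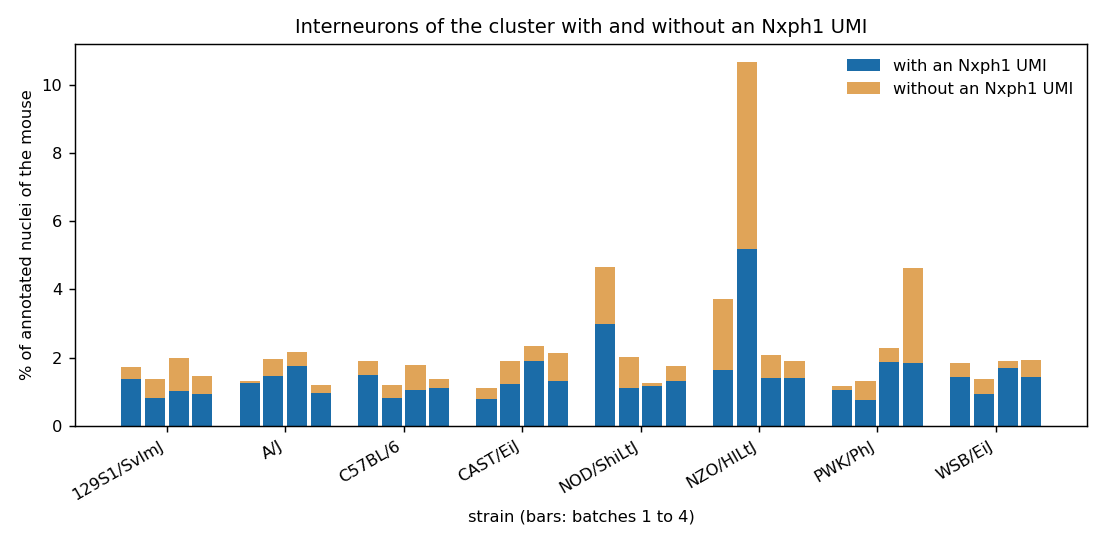
Percent of annotated nuclei of each mouse (y axis) that were Nxph1+ interneurons with (blue) and without (orange) a Nxph1 UMI, 4 bars per strain for batches 1 to 4. The highest bar, NZO/HlLtJ of batch 2, holds 5.18% with and 5.50% without.

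Few genes differed between strains within the interneurons. Of 3987 genes tested in counts summed per mouse, 61 (1.53%) passed the strain term (edgeR quasi-likelihood F test with batch as a term, adjusted p under 0.05), and 543 had an unadjusted p under 0.05. On data simulated with these depths the fit recovered 17.6% of 2-fold and 84.6% of 4-fold changes, so smaller differences were mostly below what these libraries could show. Without the 3 mice 35 genes were called, without batches 1 to 4 in turn 24, 28, 46 and 28, and with nuclei that had a Nxph1 UMI 43. None of the genes in the fixed lists was among the 61. Of those tested, 0 of 7 transcription factors, 0 of 10 channels, 0 of 11 receptors, 0 of 4 neurexophilins and neurexins and 0 of 5 GABA genes passed. Beside 1.53% of all genes, 0 in lists this short is near the background. In the contrast of NZO/HlLtJ with the other 7 strains the listed channel Kcnc1 was lower (log2 difference -1.04, edgeR adjusted p = 0.0303). Kcnc1 was also lower in nuclei without Nxph1 (98.3 ± 13.8 CPM) than with it (219 ± 35.1), with no overlap of batches. NZO/HlLtJ had the lowest mean share of interneurons with a Nxph1 UMI, 58.9%. The part of this share in the Kcnc1 difference was not tested. The only builds named for the reads of all strains are mm10 and GRCm38. The part of read alignment in the strain differences was not tested. Values below are CPM on TMM-scaled libraries, mean ± SD over 4 mice.

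Cwc22, a splicing factor gene that is known to be duplicated in some mouse strains, so that reads of its copies cannot be told apart, was highest in WSB/EiJ. Its 4 WSB/EiJ mice had 1850, 1958, 1887 and 2007 CPM, and the means of the other strains were 26.7 to 56.4. No other mouse reached the WSB/EiJ values (log2 difference from the other 7 strains 5.50, SE 0.17, edgeR adjusted p = 1.81e-26).

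Catspere2, an accessory subunit of the sperm calcium channel, was graded over strains. PWK/PhJ had 705 ± 30.2 CPM (696, 668, 719 and 738), WSB/EiJ 408 ± 71.0, A/J 394 ± 101 and NZO/HlLtJ 294 ± 33.4. NOD/ShiLtJ and 129S1/SvImJ had 123 ± 38.1 and 148 ± 53, while CAST/EiJ and C57BL/6 had 71.2 ± 34.2 and 71.0 ± 8.45. The neighbours WSB/EiJ and A/J overlapped, as did CAST/EiJ and C57BL/6. Its neighbour in name Catspere1 was called in the same 4 strains with high Catspere2, at 114 ± 45.5 in PWK/PhJ, 80.4 ± 37.8 in A/J, 76.3 ± 22.1 in WSB/EiJ and 55.4 ± 25.1 in NZO/HlLtJ, and had at most 1 count in each other strain.

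CAST/EiJ stood apart for several genes. Nkain2, which interacts with the sodium pump, had 566, 274, 411 and 172 CPM in CAST/EiJ and strain means of 1273 to 2313 elsewhere (log2 difference -2.37, SE 0.27, edgeR adjusted p = 2.26e-07). Clvs2, a clavesin of clathrin-coated vesicles, had 259, 346, 353 and 317 CPM in CAST/EiJ and means of 73.6 to 149 elsewhere (1.76, SE 0.22, edgeR adjusted p = 1.13e-06). Upp2, a uridine phosphorylase, was low in CAST/EiJ (67.5 ± 46.8) and PWK/PhJ (95.2 ± 32.1) beside 320 to 367 in the other strains. Mrpl41, a mitochondrial ribosomal protein, was at 18.7 ± 15.1 in CAST/EiJ, 46.4 ± 24.9 in PWK/PhJ and 242 ± 71.1 in A/J. Firre, a long noncoding RNA, was at 22.0 ± 7.60 in CAST/EiJ and at 107 in 129S1/SvImJ, the highest strain. The unnamed transcript AC149090.1 was at 3104 ± 1016 in CAST/EiJ, 1715 ± 487 in PWK/PhJ and 85.8 ± 19.7 in A/J. B530045E10Rik had 147 of its 151 counts in CAST/EiJ (135, 339, 842 and 417 CPM), was called by edgeR (adjusted p = 5.72e-12) and was not called by DESeq2 (adjusted p = 0.706).

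In NZO/HlLtJ, Nudcd1, a relative of the NudC chaperone family, had 191, 148, 175 and 178 CPM and strain means of 35.1 to 89.5 elsewhere (log2 difference 1.77, SE 0.23, edgeR adjusted p = 9.39e-06). All 4 mice lay above every mouse of the other strains. Zfp949, a zinc finger gene, was at 194 ± 50.3 there and lowest, 49.5, in 129S1/SvImJ. Cfap54, a cilia gene, was at 204 ± 82.6 there and 45.1 in C57BL/6. In WSB/EiJ, Fndc1 was at 228 ± 40.4 CPM (26.8 to 96.8 elsewhere) and Tmem181a at 23.1 ± 22.9 (202 in 129S1/SvImJ). In PWK/PhJ, the centromere protein gene Hjurp was at 123 ± 37.6, Fhit at 381 ± 62.9 and A230057D06Rik at 528 ± 108, the latter the lowest strain mean. The plot of 8 called genes shows the values of all mice.

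**Figure D3:**
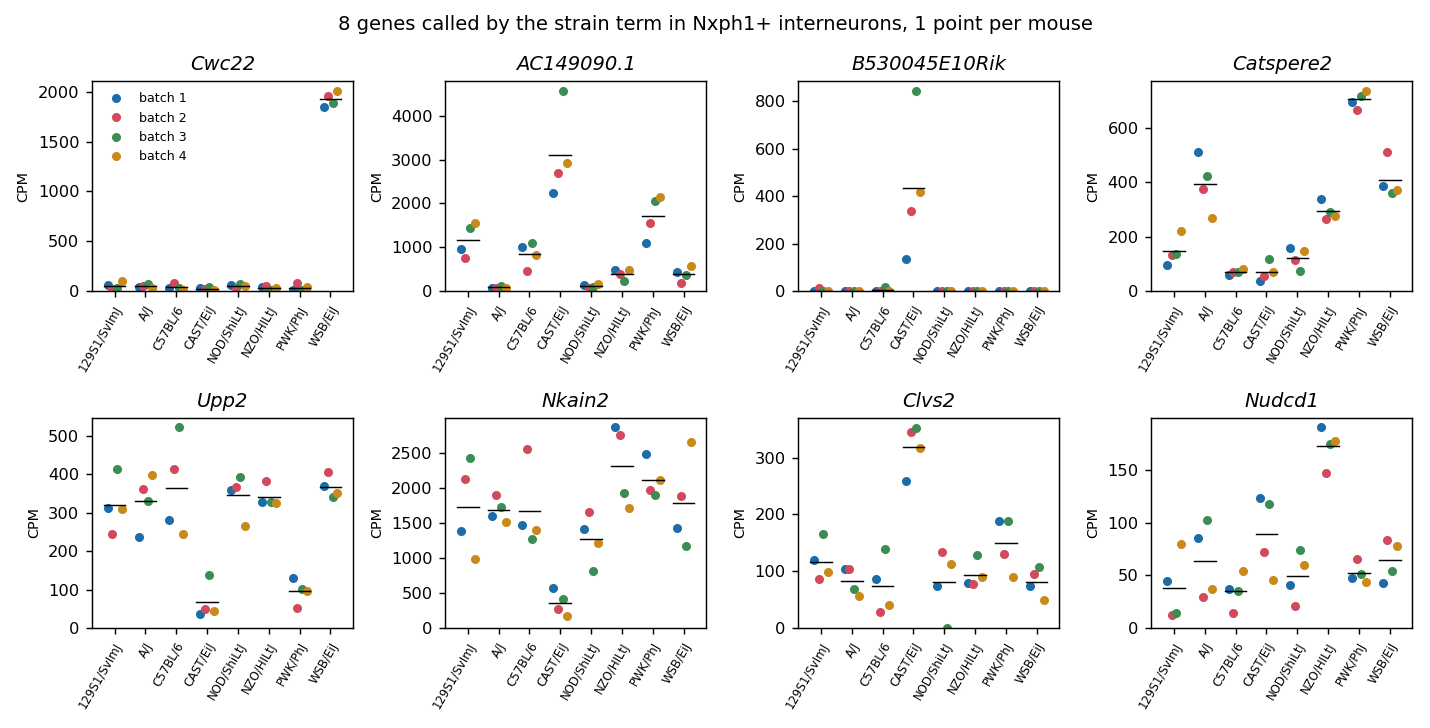
CPM (y axis, TMM-scaled) of 8 genes called by the strain term in the interneurons of each mouse by strain (x axis), coloured by batch, with strain means as lines. The WSB/EiJ mice stand at 1850 to 2007 for Cwc22, and the CAST/EiJ mice lie lowest for Nkain2 and highest for Clvs2.

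Of the 25 genes named by rule, 11 kept their call under every alternative in which they were tested. They were Cwc22, AC149090.1, Catspere2, Upp2, Catspere1, Nkain2, Mrpl41, Fndc1, Clvs2, Tmem181a and Hjurp. Not every gene was tested in each alternative: Catspere1 was tested in 9 and Hjurp in 11, beside 14 for Cwc22. Leaving out batch 1 ended the calls of Nudcd1 (edgeR adjusted p = 0.0761), Gm47283 (0.0539), A230057D06Rik (0.0697), Ankrd24 (0.116), Cfap54 (0.319), Lekr1 (0.104), Firre (0.237) and Cwf19l2 (0.138). Leaving out batch 2 ended those of Sfi1 (0.204), Ankrd24 (0.0787), Cfap54 (0.126), Firre (0.0763) and Cwf19l2 (0.0900), batch 3 those of Gm32647 (0.0668) and Cwf19l2 (0.0509), and batch 4 those of Ankrd24 (0.0607), Zfp949 (0.133) and Lekr1 (0.121). Without the 3 mice, Zfp949 (0.0807) and Lekr1 (0.0527) were lost. With nuclei that had a Nxph1 UMI, Btbd9 (0.0935), Fhit (0.0918), Sfi1 (0.0774) and Firre (0.102) were lost, all by the edgeR test.

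Contrasts of each strain with the average of the 7 others in the same edgeR fit gave 121 calls at an adjusted p under 0.05. PWK/PhJ had 40 (1% of the genes tested; 25 higher, 15 lower), CAST/EiJ 32 (0.803%; 17 higher, 15 lower) and NZO/HlLtJ 28 (0.702%; 20 higher, 8 lower). A/J had 9 (0.226%), WSB/EiJ 5 (0.125%), C57BL/6 3 (0.0752%), NOD/ShiLtJ 3 (0.0752%) and 129S1/SvImJ 1 (0.0251%). The NZO/HlLtJ count was 3 without batch 1 and 5 without batch 2, 7 without its mouse of batch 2, which had the most interneurons, 10 without the 3 mice, and 4 with only nuclei that had a Nxph1 UMI. The PWK/PhJ count was 6 without batch 4 and 14 without the 3 mice, and the CAST/EiJ count was 9 without batch 2 and 21 without the 3 mice. The lowest counts with a batch left out were 2 in A/J (without batch 1), 2 in WSB/EiJ (without batch 2), 1 in NOD/ShiLtJ (without batch 1 or 4) and 1 in C57BL/6 (without batch 1, 2 or 4).

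The strain effect of some genes differed between the interneurons and the Drd1+ neurons of the same mice. Of 14458 genes tested, 263 (1.82%) passed the interaction of strain and cluster (edgeR quasi-likelihood F test, mouse as a block), and 1364 had an unadjusted p under 0.05. With the Drd1+ libraries thinned to the depth of the interneurons, 57 of 4552 genes passed. The log2 ratios below are interneurons over Drd1+ neurons, as the mean ± SD over the 4 mice of a strain.

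For Edil3, a secreted matrix protein, the interneurons held 566 to 859 CPM in all 8 strains. The Drd1+ neurons held 34.5 ± 9.25 CPM (CAST/EiJ), 38.4 ± 17.4 (PWK/PhJ) and means of 125 to 283 for the other strains. The ratio was 3.97 ± 0.48 in PWK/PhJ, 4.08 ± 0.45 in CAST/EiJ and 1.24 to 2.16 elsewhere (edgeR adjusted p = 5.97e-14). Dgkg, a diacylglycerol kinase, and Kcnj3, an inward rectifier potassium channel, had the same 2 low strains in Drd1+ neurons. Dgkg was at 10.8 and 4.44 CPM in CAST/EiJ and PWK/PhJ Drd1+ neurons beside 39.3 to 78.5, and at 140 to 276 in the interneurons (edgeR adjusted p = 1.11e-09). Kcnj3 was at 10.3 and 8.42 CPM there beside 25.2 to 55.5, and at 310 to 535 in the interneurons (edgeR adjusted p = 9.38e-08).

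Snhg11, a neuronal long noncoding RNA, was at 3202 to 4048 CPM in the interneurons of all strains. In Drd1+ neurons it was at 797 ± 92.4 in NZO/HlLtJ, 1360 ± 160 in A/J and 1519 ± 124 in NOD/ShiLtJ and reached 2819 in PWK/PhJ. The ratio was 2.14 ± 0.15 in NZO/HlLtJ and 0.47 ± 0.15 in 129S1/SvImJ (edgeR adjusted p = 3.57e-11). Kcnh7, an ERG potassium channel, was higher in Drd1+ neurons than in the interneurons in CAST/EiJ alone (817 ± 55.6 and 583 ± 199 CPM, ratio -0.55 ± 0.57), and its ratio in the other strains was 0.40 to 1.66 (edgeR adjusted p = 2.93e-08).

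Sox5, a SoxD transcription factor of interneuron development, was not called by the strain term within the interneurons (edgeR adjusted p = 0.42). It was at 188 ± 78.6 CPM in PWK/PhJ interneurons and 321 to 445 in the others, and at 14.7 ± 5.07 and 2.55 to 13.6 in Drd1+ neurons (edgeR adjusted p = 1.59e-18). Gm16083 was at 126 ± 54.3 CPM in CAST/EiJ interneurons and 25.5 to 62.2 elsewhere, with 2.24 ± 0.816 in CAST/EiJ Drd1+ neurons (edgeR adjusted p = 1.18e-13). Ankrd44 was at 47.0 to 86.8 CPM in the interneurons of all strains, and its Drd1+ level was highest in PWK/PhJ, 30.8 ± 5.82 (edgeR adjusted p = 1.20e-11). Ntn4, a netrin, was nearly absent from C57BL/6 Drd1+ neurons (0.0628 ± 0.126 CPM) and at 23.5 ± 11.2 in their interneurons, while NOD/ShiLtJ had 43.7 ± 5.53 and 34.7 ± 14.6 (edgeR adjusted p = 1.46e-10).

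Edil3, Snhg11 and Kcnh7 kept their call under every alternative run. With thinned Drd1+ libraries the calls of Sox5 (edgeR adjusted p = 0.104), Dgkg (0.0528), Gm16083 (0.172), Kcnj3 (0.0898) and Ankrd44 (0.166) were lost, and with Drd2+ neurons as the other cluster those of Kcnj3 (0.0788) and Ntn4 (0.312). Kcnc2 was among the listed channels that passed, and its call was lost without batch 3 (edgeR adjusted p = 0.0811). Over all genes 1.82% passed. Of the other fixed lists, 1 of 6 GABA genes (Gad1), 1 of 5 calcium-binding proteins (Necab1), 1 of 13 neuropeptides (Nts), 1 of 4 Elavl genes (Elavl4) and 0 of 18 transcription factors passed. The Nts call was lost without batch 3 (edgeR adjusted p = 0.294), without batch 4 (0.0984) and with nuclei that had a Nxph1 UMI (0.318). Gad1 was at 163 ± 7.77 CPM in NOD/ShiLtJ interneurons and 161 ± 22.0 in their Drd1+ neurons, but at 225 ± 25.5 and 74.6 ± 7.32 in CAST/EiJ (edgeR adjusted p = 0.000375, and 0.0764 without batch 2). The plot of 6 interaction genes shows both cell types by mouse.

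**Figure D4:**
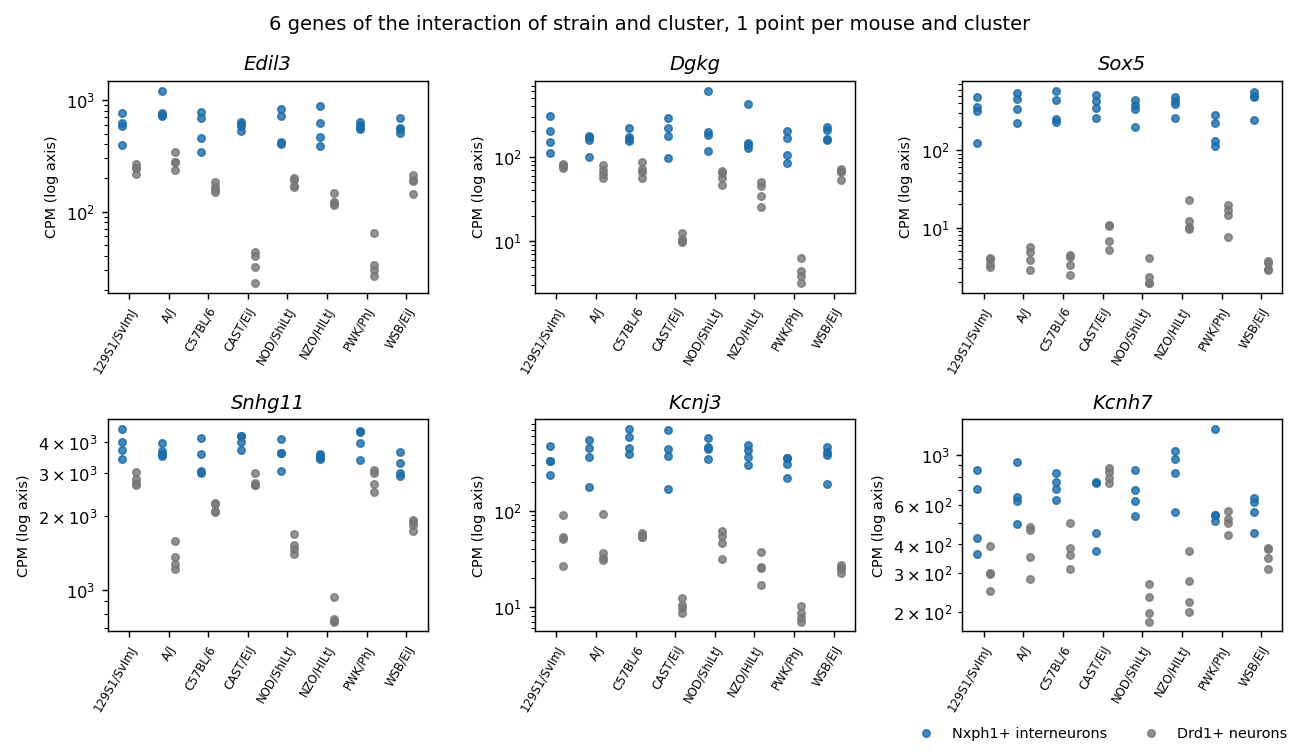
CPM (y axes, log scale, TMM-scaled) of 6 genes with an interaction of strain and cluster, in Nxph1+ interneurons (blue) and Drd1+ neurons (grey) of each mouse by strain. For Edil3, Dgkg and Kcnj3 the Drd1+ values of CAST/EiJ and PWK/PhJ fall below the other strains, while the interneuron values stay together.

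Nuclei with Sst and nuclei with Pvalb were compared within batch. Of the interneurons, 202 had a Sst UMI and no Pvalb UMI (50, 70, 30 and 52 in batches 1 to 4), 74 had a Pvalb UMI and no Sst UMI (28, 15, 10 and 21), and 20 had both. Sst detection was not above that in oligodendrocytes, as given above, so the Sst class may include nuclei that carry a stray Sst UMI. Pvalb, in 2.46% of thinned interneurons against 1.39% of oligodendrocytes and at no more than 3 UMIs, was nearer to the oligodendrocytes than Pthlh, and the part of stray UMIs in the Pvalb class was not tested. The Sst class had Nxph1 in 64.9%, Kit in 24.8%, Pthlh in 9.90% and Adarb2 in 16.8%. The Pvalb class had Nxph1 in 71.6%, Kit in 41.9%, Pthlh in 18.9% and Adarb2 in 31.1%. Median UMIs were 4701.5 and 5016.5. The 3 mice above 4% gave 63 of the 202 and 16 of the 74, and Zic1 was read in 24 of the Sst class and 0 of the Pvalb class.

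Of 3230 genes tested in counts summed per batch and class, 212 (6.56%) passed (edgeR quasi-likelihood F test with batch as a block), 113 higher with Sst (3.5%) and 99 higher with Pvalb (3.07%). Nuclei of 8 mice were pooled in each sum, so the spread is between batches. The count was 127 with no replicate block, 81 with DESeq2, 106 without the 3 mice, and 7 of 697 genes with libraries per mouse. Sst and Pvalb themselves defined the classes. Values are CPM, mean ± SD over 4 batches, and log2 differences are Sst over Pvalb.

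Higher with Sst were Cadps2, a protein of dense-core vesicle release, at 166 ± 83.4 against 12.3 ± 15.5 (3.32, SE 0.49), and Nnat, a small neuronal membrane proteolipid, at 305 ± 37.1 against 35 ± 38.2 (2.76, SE 0.37). Grin3a, an NMDA receptor subunit, was at 298 ± 111 against 37.8 ± 27.6 (2.52, SE 0.34), and Trhde, which degrades thyrotropin-releasing hormone, at 615 ± 162 against 93.3 ± 32.1 (2.60, SE 0.25). The semaphorin Sema6d was at 672 ± 237 against 88.7 ± 65.0 and Gulp1, an engulfment adaptor, at 110 ± 18.3 against 19.7 ± 16.8. Gm26871, Tafa1, 6330403K07Rik, Thsd7b, Cpne5 and Trpm3 complete the 12. For each of the 12 the Sst value was above the Pvalb value in all 4 batches, which the rule for named genes required.

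Higher with Pvalb were an orphan nuclear receptor and Kv3 channels, among others. Esrrg, the receptor, was at 890 ± 48.5 with Pvalb and 292 ± 58.0 with Sst (log2 difference -1.60), Rmst at 252 ± 81.5 against 45.2 ± 26.2 (-2.28) and Mitf, a transcription factor, at 287 ± 28.7 against 83.2 ± 36.0 (-2.0). Gpc5 was at 1689 ± 1103 against 179 ± 139 (-3.02) and Adarb2 at 1608 ± 473 against 408 ± 197 (-2.09). The rule also took 6330411D24Rik, Sema3e, Cemip, Coro6, Flt3 and Cabp1. Of 9 listed fast-spiking channels tested, 4 passed, beside 6.56% of all genes, all higher with Pvalb (3.07% of all genes): Kcnc2 (2588 with Pvalb against 1001 with Sst, -1.48, edgeR adjusted p = 2.09e-07), Kcnc1 (407 against 174, -1.30) and the sodium channels Scn1a (811 against 449, -0.87) and Scn8a (492 against 299, -0.72). Of 10 receptors 2 passed (6.56% of all genes), Erbb4 at 10295 with Pvalb against 5323 (-0.96) and the phosphatase Ptprt at 183 against 494 (1.62), and of 6 transcription factors 2 passed (6.56%), Sox6 (-0.96) and Maf (-0.80, edgeR adjusted p = 0.0464). The median log2 difference of the 9 channels was -0.83, beside 0.01 over all genes. Of markers of other cell types, 1 of 3 oligodendrocyte markers tested (median log2 difference 0.56) and 1 of 4 projection neuron markers (0.22) passed, beside 6.56% of all genes. The 1 astrocyte marker (0.79) and the 1 neuroblast marker (0.62) tested did not pass. The part of other cell types in this comparison was not tested. Nxph1 (-0.26, edgeR adjusted p = 0.364) and Kit (-0.38, edgeR adjusted p = 0.476) did not pass.

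Of the 24 genes the rule took for this comparison, 14 kept their call under every alternative in which they were tested. Cadps2, Cpne5 and 6330403K07Rik were tested in only 7 alternatives, beside 13 for Trhde. The Adarb2 call was lost in the edgeR fit without the 3 mice (log2 difference -1.75, adjusted p = 0.159), with libraries per mouse (-2.30, 0.397) and with nuclei thinned to 3000 UMIs (-1.62, 0.339). With Pthlh in place of Pvalb it was reversed: Adarb2 was then higher with Sst (log2 difference 3.96) and Esrrg did not differ by the test (0.17, edgeR adjusted p = 0.734). Gm26871 (edgeR adjusted p = 0.320), Tafa1 (0.242), Trpm3 (0.204), 6330411D24Rik (0.913) and Mitf (0.888) were also lost with Pthlh. Only 2.59% of the 116 nuclei of that Pthlh class had Adarb2, and 98.3% had Nxph1 and 88.8% Kit. Without the block the calls of Tafa1 (edgeR adjusted p = 0.265), Trpm3 (0.103) and Gpc5 (0.0865) were lost. Cabp1 was lost with DESeq2 (adjusted p = 0.0786) and in edgeR without batch 2 (0.106), and Trpm3 also with libraries per mouse (0.216) and with at least 2 UMIs (0.0766).

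No difference between strains in the make-up of the cluster by marker passed the test. The percent of interneurons of a mouse with a UMI of each of 12 markers was compared between strains by permutation of the F statistic within batch, and 0 of 12 passed, at an adjusted or unadjusted p under 0.05. The lowest was Calb2 (permutation p = 0.0955, adjusted 0.771). Pthlh was found in a mean of 13.4% ± 8.27 (SD, n = 32 mice; 0 to 30.4), Pvalb in 7.97% ± 6.70 (0 to 26.1), Lhx6 in 11.3% ± 6.54 and Th in 3.17% ± 3.73, so single mice varied widely.

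Pairs of markers were compared in nuclei thinned to 3000 UMIs, which kept 894 of the 1222 interneurons. In 23 mice, Npy was found in 12.2% of nuclei with Sst and 4.66% without, a difference of 7.57 percentage points ± 16.9 (SD), higher in 11 mice and lower in 6. The sign-flip permutation p was 0.0418 and 0.215 after adjustment over 10 pairs. Pthlh was found in 5.25% of nuclei with Sst and 9.56% without (permutation p = 0.0861, adjusted 0.215). The Pvalb pairs had 9 mice, none of batch 3. Kit was found in 30.4% of nuclei with Pvalb and 32.5% without (permutation p = 0.848, adjusted 0.848). Pthlh was found in 8.33% with Pvalb and 10.2% without (permutation p = 0.739, adjusted 0.848). Of the 10 pairs 0 passed after adjustment and 1 had an unadjusted p under 0.05. Neither Sst nor Npy was found more often here than in oligodendrocytes, and the part of free RNA in this pair was not tested.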

How the data were processed

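Nuclear RNA counts of the 4 RNA pools, the deposited table of nuclei with cluster and strain, and the list of accessible regions were used. The deposited matrices hold raw counts (UMIs) per gene and barcode. The submitters' processing notes name bcl2fastq 2.20.0.422, Cell Ranger ARC 2.0.0 and builds mm10 and GRCm38. Strain calls by Demuxlet, doublet calls by DoubletFinder, filters of over 200 and under 7500 genes and under 15% mitochondrial counts, and cluster names are the authors', per the file headers and labels, and were used unchanged. No further doublet caller or filter on nuclei was run. The values that are categories or positions in those tables are the authors' own (unit other).

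Counts were summed per mouse (at least 10 nuclei), filtered with filterByExpr, scaled by TMM and tested with edgeR 4.0.16 (R 4.3.3), with Benjamini-Hochberg adjustment over all genes tested. DESeq2 1.42.0 was an alternative. The interneurons were set beside Drd1+ neurons, the cluster with most nuclei. Replicate numbers are the batches, which the labels give, so batch is a block that pairs the mice of different strains. CPM is counts per 1000000 of a library. Shares were tested by permutation within batch with Python 3.11.15, numpy 2.4.6 and scipy 1.17.1. Thinning drew UMIs without replacement, and nuclei with fewer UMIs than the target were dropped. Log2 ratios of the nuclei with and without Nxph1 used a pseudocount of 5 CPM.

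The rule for named genes took, of the called genes, the 25 with the largest F for the strain term (at least 20 CPM in the highest strain), the 10 with the largest F for the interaction, and the 12 with the largest log2 difference in each direction for Sst against Pvalb (at least 30 CPM and the same direction in all 4 batches), besides the fixed lists. Of the genes taken by this rule, 2 are not reported here. The members and lists were chosen with earlier results of these data known. The fits were tested on simulated data: the interaction recovered 1.02% of 2-fold and 47.2% of 4-fold changes, the class comparison 72.4% and 100%. Of the simulated calls at 2-fold and 4-fold, 8.33% of 36 and 3.05% of 164 were false for the strain term. For the interaction 0% of 2 and 5.10% of 98 were false, and for the class comparison 5.26% of 152 and 7.41% of 216. Of 3 genes looked up, 3 matched a RefSeq promoter. Alternatives were other scalings, filters, tools, blocks, depths and markers, each batch left out, and, added after seeing the data, fits without the NZO/HlLtJ mouse of batch 2, without the 3 mice above 4% and with nuclei that had a Nxph1 UMI. Nothing in the labels says the mice of a strain came from separate litters, so p-values measure the spread between these mice.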

Additional observations from a re-analysis of the deposited data

Results flagged for a closer look

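In 6 of 122 groups of 4 values, 1 value lay apart from the other 3 by Dixon's 95% criterion, and chance gives about 1 in 20, or 6.1 of these groups. Median UMIs per interneuron were 2525.5 in the A/J mouse of batch 3 (4695 to 4838 in the other 3) and 2662.5 in the PWK/PhJ mouse of batch 3 (4620 to 4964), and batch 3 was the shallowest batch. The WSB/EiJ mouse of batch 2 had a share of 1.38% beside 1.86% to 1.93%. Upp2 was at 137 CPM in the CAST/EiJ mouse of batch 3 and 36.9 to 50.4 in the others. In the Sst class, Sema6d was at 1026 CPM in batch 2 (529 to 568 in the others) and 6330403K07Rik at 193 CPM in batch 3 (86.6 to 94.6).

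For 9 genes the strain effect differed between the interneurons and the Drd1+ neurons by the edgeR test of the interaction. The adjusted p was 5.97e-14 for Edil3, 1.59e-18 for Sox5, 1.11e-09 for Dgkg, 1.18e-13 for Gm16083, 9.38e-08 for Kcnj3, 1.20e-11 for Ankrd44, 3.57e-11 for Snhg11, 1.46e-10 for Ntn4 and 2.93e-08 for Kcnh7.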

How the results depend on the processing

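The shares by strain, the median UMIs and the 12 marker shares stayed on the same side of the threshold in every alternative run. The strain term called 61 genes, and 468 with no filter, 23 with a mean of at least 20 counts, 109 with DESeq2, 35 without the 3 mice and 24 to 46 with a batch left out; with no replicate block it called 46. The contrasts of each strain with the other 7 gave 121 calls, and 551 with no filter, 59 without the 3 mice, 71 with nuclei that had a Nxph1 UMI, 43 to 89 with a batch left out and 99 with no replicate block. The interaction called 263 genes, and 57 with Drd1+ libraries thinned, 441 with no filter, 292 to 402 with a batch left out, 373 with batch as the only block and 283 with no replicate block. Sst against Pvalb called 212, and 127 with no replicate block, 7 with libraries per mouse, 22 with at least 2 UMIs, 415 with Pthlh as the second marker, 81 with DESeq2, 29 thinned to 3000 UMIs, 106 without the 3 mice and 127 to 210 with a batch left out. The filters, thinned depths and left-out mice change which genes or how many samples are tested; the cause was otherwise not tested. Leaving the replicate block out ended the calls of Tafa1, Trpm3 and Gpc5 and of no other gene named by rule, and gave 5 calls in place of 9 in A/J, 18 in place of 32 in CAST/EiJ and 8 in place of 3 in NOD/ShiLtJ.

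With Pthlh, Adarb2 was reversed (log2 difference 3.96), and Esrrg lost its call with a value of the other sign (0.17, edgeR adjusted p = 0.734). Of the 10 marker pairs, 1 passed with nuclei thinned to 1500 UMIs. Differences in percentage points changed sign with counts as deposited for Sst and Nos1 (1.92), Sst and Chodl (1.01), Pvalb and Pthlh (1.14) and Sst and Elfn1 (0.806), and at 1500 UMIs for Sst and Chodl (0.0982), Pvalb and Pthlh (4.15) and Sst and Elfn1 (0.556); the cause was not tested. With nuclei summed per batch, Sst and Nos1 (0.455) and Pvalb and Pthlh (2.14) were also of the other sign. With a batch left out, the ranges that crossed 0 were -4.32 to 2.28 for Pvalb and Pthlh, -15.2 to 10.3 for Pvalb and Kit and -1.96 to 4.54 for Npy and Lamp5. The pair that passed at 1500 UMIs was Sst and Nos1 (-2.92). Of the genes taken by the rule, 303 of 328 strain results and 122 of 129 interaction results kept their call, with no direction compared. Both direction and call were kept in 220 of 238 class results. These statements have a limit: on simulated data the strain fit recovered 17.6% of 2-fold changes. The parts of depth, number of mice and spread in this limit were not tested.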
